A study of Homo sapiens with 21 samples.

Results

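The lysosomal enzymes and membrane proteins analysed here were 39 genes, chosen by symbol and matched through the Ensembl identifiers of the count table, which listed 42339 genes. They comprised 5 membrane proteins, the transcription factor TFEB, 11 cathepsins, the peptidase TPP1, the thioesterase PPT1, 12 glycosidases, 4 sulfatases and 4 genes of sphingolipid breakdown. Lysosomes are acidic organelles in which hydrolases made in the endoplasmic reticulum, and mostly tagged with mannose 6-phosphate, break down proteins, glycans, lipids and nucleic acids. Their limiting membrane is lined by heavily glycosylated proteins such as LAMP1 and LAMP2. TFEB and its relatives TFE3 and MITF bind E-box letters near the starts of many lysosomal genes and enter the nucleus when the kinase complex mTORC1 is inactive, whereas MYC with its partner MAX reads the same core letters.

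Bulk mRNA was sequenced from 21 cultures of BT-549, an established triple-negative breast cancer (TNBC) cell line that is wild-type for BRCA1, in 7 groups of 3. The 2D cells grew attached in RPMI1640 with serum, insulin and antibiotics, and the 3D cells were mammospheres at passage 6 in MammoCult medium on ultra-low attachment plates. The GO-203 group was such mammospheres given 0.75 µM GO-203, a peptide inhibitor of the MUC1-C subunit. The tet-MUC1shRNA mammospheres at passage 6 and the tet-MYCshRNA mammospheres at passage 8 received either 0.1% DMSO (vehicle) or 500 ng/ml doxycycline (DOX), which switches on the shRNA. Culture format and medium changed together between 2D and 3D cells and cannot be told apart. No library received DOX without a targeting shRNA and each gene was targeted by a single hairpin, so that effects of DOX itself or of other targets of the hairpin cannot be told apart from loss of the target. The GO-203 exposure before RNA extraction was not given in the sources used here. The 3D libraries, called untreated below, served both the 3D vs. 2D and the GO-203 comparison. Their titles mark them only as controls, whereas the paper describes its GO-203 comparison as against vehicle, so a vehicle may have been given. Cultures were grown in triplicate, so that p-values measure the spread between cultures of a single cell line. In bulk RNA, fewer cells of a kind and less RNA per cell cannot be told apart.

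Library totals ran from 38026597 to 99751717 counts, and levels are given as CPM (counts scaled to a fixed library total) scaled over the 21 libraries. Differences are log2 fold changes with their standard errors from edgeR's quasi-likelihood test, with Benjamini-Hochberg adjustment over all genes tested, and a gene passed at an adjusted p below 0.1. The labels call the tissue epithelial breast. Of 5 epithelial markers (EPCAM, CDH1, KRT8, KRT18, KRT19) none exceeded 1.51 CPM in any library, whereas the mesenchymal marker VIM lay between 1076 and 2486 CPM. Of 4 leukocyte markers (PTPRC, CD14, CSF1R, LYZ), whose cells are rich in lysosomes, the summed level was between 0.343 and 2.09 CPM in all libraries and LYZ did not exceed 0.0689 CPM. Of 2 endothelial markers, CDH5 did not exceed 0.104 CPM and PECAM1 reached 10.1 CPM. Genes encoded by mtDNA took 2.31% to 6.72% of counts, with the ranges given beside each comparison. MUC1 itself read 101, 83.2 and 86.6 CPM with vehicle and 19.7, 21.2 and 23.3 CPM with DOX in the tet-MUC1shRNA libraries (log2 fold change -2.06 ± 0.07, adjusted p = 3.0e-15). MYC read 439, 418 and 386 CPM with vehicle and 244, 279 and 297 CPM with DOX in the tet-MYCshRNA libraries (log2 fold change -0.62 ± 0.08, adjusted p = 9.1e-05).

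Lysosomal genes took 0.604% of all counts in 2D cells, 0.794% in 3D cells and 0.782% with GO-203 (means, n = 3 each). The tet-MUC1shRNA mammospheres gave them 1.09% with vehicle and 0.869% with DOX, and the tet-MYCshRNA mammospheres 0.637% and 1.18%. CTSB and CTSL, cysteine proteases that cut proteins internally, made up 27.0% of the summed CPM in 2D cells and 54.6% to 71.3% in the mammosphere groups (group means). The summed level of the other 37 genes was 4338 ± 277 CPM in 2D cells and 3351 ± 121 CPM in 3D cells, so that the larger sum in 3D cells lay in CTSB and CTSL. On MYC silencing both portions were larger: CTSB with CTSL went from 3728 ± 141 to 6588 ± 518 CPM and the other 37 from 2556 ± 82.2 to 5467 ± 385 CPM (SD, n = 3).

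**Figure D1:**
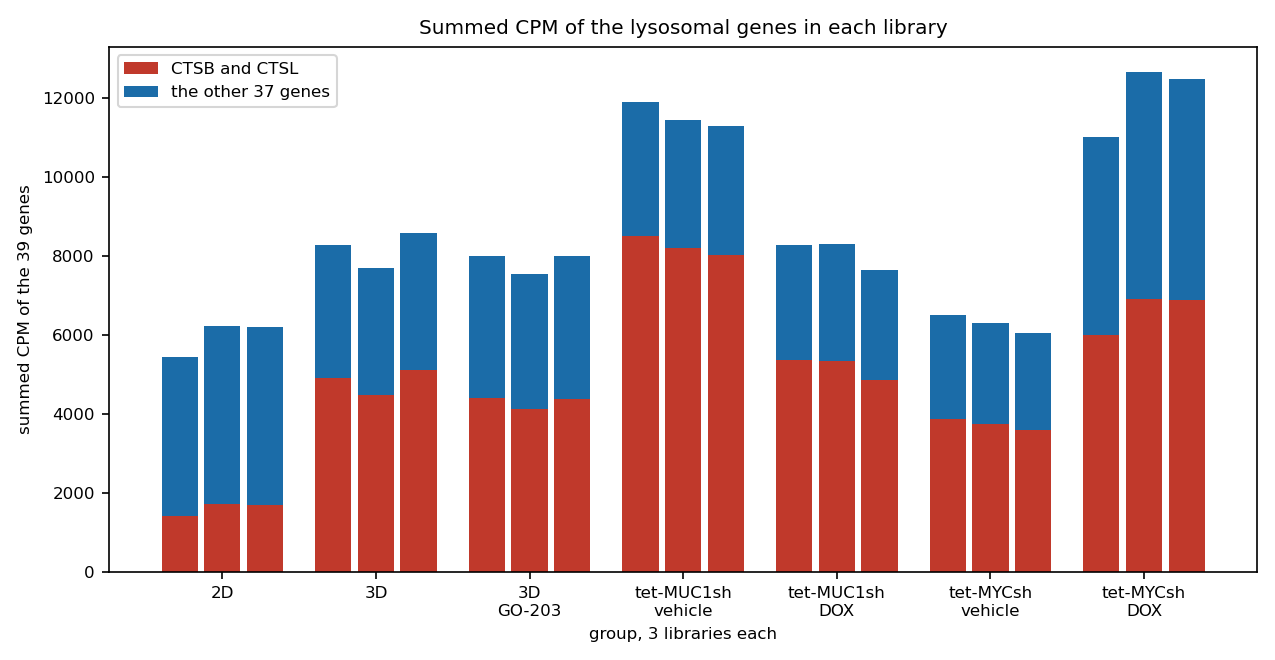
Summed CPM of the 39 lysosomal genes (vertical axis, CPM) in each of the 21 libraries, grouped by condition, with CTSB and CTSL in red and the other 37 genes in blue. The sum lies between 5441 and 6213 CPM in 2D cells and between 11022 and 12661 CPM in DOX-treated tet-MYCshRNA mammospheres.

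Per kilobase of exon, PSAP, the precursor of the saposins that present sphingolipids to their hydrolases, led in 2D cells at 168 ± 22.3 CPM per kilobase (SD, n = 3). LAMP1 followed at 155 ± 3.18, within the SD of PSAP, and CTSB came next at 122 ± 12. In 3D cells CTSB and CTSL led at 295 ± 16.4 and 282 ± 25.5 CPM per kilobase, which did not differ beyond their spread, and PSAP followed at 192 ± 11.3. With GO-203, CTSL at 267 ± 18.0 and CTSB at 253 ± 6.18 were again within their spread, as were CTSB at 495 ± 14.7 and CTSL at 495 ± 15.3 in vehicle-treated tet-MUC1shRNA mammospheres. CTSB led beyond that spread in the other 3 mammosphere groups. CTSS, a cysteine protease of antigen-presenting cells, was the lowest in all 7 groups with 4 to 34 reads per library. TFEB, IDUA (alpha-L-iduronidase), CTSO and CTSH also stayed below 0.4 CPM per kilobase, apart from CTSO in 2D cells at 1.92 ± 0.363 and CTSH in DOX-treated tet-MYCshRNA mammospheres at 1.24 ± 0.0840. Low counts of 1 to 20 were even in 67.0% to 71.1% of cases in each library, against 49.5% to 51.5% of counts above 1000. Whether the mates of a pair were counted separately was not tested. If so, the sampling error of the rare transcripts is larger than their read numbers imply.

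The 3 mammosphere control groups (3D cells and both vehicle groups) did not start from the same levels. The ratio of the highest to the lowest control mean had a median of 1.80 over the 39 genes, ran from 1.20 for MCOLN1 to 3.71 for CTSL, and exceeded 2 for 11 genes. The vehicle-treated tet-MUC1shRNA group was the highest for 27 genes, and the vehicle-treated tet-MYCshRNA group the lowest for 24. Over the 20542 genes with a count in every library of these controls, the median ratio was 1.63, 31.9% exceeded 2, and the same groups were the highest for 40.1% and the lowest for 34.4%. CTSL read 1739, 1566 and 1876 CPM in 3D cells, 3115, 3033 and 2929 CPM in vehicle-treated tet-MUC1shRNA and 815, 838 and 795 CPM in vehicle-treated tet-MYCshRNA mammospheres. No values overlapped between these 3 groups. ASAH1, the acid ceramidase, read 34.8, 30.5 and 36.8 CPM in 3D cells, 94.8, 88.2 and 94.1 CPM in the vehicle-treated tet-MUC1shRNA and 49.7, 49.1 and 47.8 CPM in the vehicle-treated tet-MYCshRNA group, again without overlap. Line, passage and possibly vehicle differed between these controls and cannot be told apart.

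Of the 39 genes, 27 had promoter entries in RefSeq (GRCh38.p14), 38 windows in all, each from 250 bases before to 50 after a transcript start. CACGTG, the core E-box (its own reverse complement, so both strands are covered), was present in 9 of the 38 windows, 23.7%, against 7.26% of all 35116 windows. The longer TCACGTGA, which contains the core and is likewise palindromic, was in 4 of 38, 10.5%, against 0.98%. The core was found for LAMP1, MCOLN1, GAA, CTSA, NEU1, CTSF, CTSD, CD63 and ARSB, and the longer letters for LAMP1, MCOLN1, GAA and CTSA. The stretches before the start of 7 of these genes, picked by hand, are shown 5′ to 3′ on the gene's strand, with each CACGTG in capitals. All 7 rose on MYC silencing, while LAMP1 and CTSA did not pass on MUC1 silencing. CD63, which rose on MYC silencing, and ARSB, which fell by 0.23, are not shown.
LAMP1: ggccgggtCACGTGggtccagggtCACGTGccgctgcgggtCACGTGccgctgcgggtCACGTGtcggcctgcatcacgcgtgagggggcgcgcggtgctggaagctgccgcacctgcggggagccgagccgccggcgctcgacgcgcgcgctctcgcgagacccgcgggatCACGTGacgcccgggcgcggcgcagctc
MCOLN1: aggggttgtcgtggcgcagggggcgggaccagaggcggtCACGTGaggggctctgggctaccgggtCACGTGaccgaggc
GAA: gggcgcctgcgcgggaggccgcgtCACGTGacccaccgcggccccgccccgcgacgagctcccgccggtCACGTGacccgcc
CTSA: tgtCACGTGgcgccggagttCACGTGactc
NEU1: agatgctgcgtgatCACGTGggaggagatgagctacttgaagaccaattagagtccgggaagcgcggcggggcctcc
CTSF: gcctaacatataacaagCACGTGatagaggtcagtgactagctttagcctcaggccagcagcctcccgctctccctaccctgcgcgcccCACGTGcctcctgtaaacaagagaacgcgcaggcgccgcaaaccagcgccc
CTSD: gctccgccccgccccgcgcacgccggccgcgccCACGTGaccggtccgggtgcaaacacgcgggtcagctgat
The stretches lie at chr13:113297039-113297238 (plus strand), chr19:7522544-7522623 (plus), chr17:80101481-80101562 (plus), chr20:45891290-45891319 (plus), chr6:31862885-31862961 (minus), chr11:66568607-66568746 (minus) and chr11:1763935-1764007 (minus). Those of LAMP1 and MCOLN1 lay outside all GENCODE 44 exons of the gene, and the others shared 21 to 30 bases with an exon of another transcript of the same gene. LAMP1 carried 6 cores in its window, the last of them beginning 1 base before the start, MCOLN1, GAA, CTSF and CTSA carried 2 each, and the others 1. A match of letters is a description of the window, not a bound site.

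**Figure D2:**
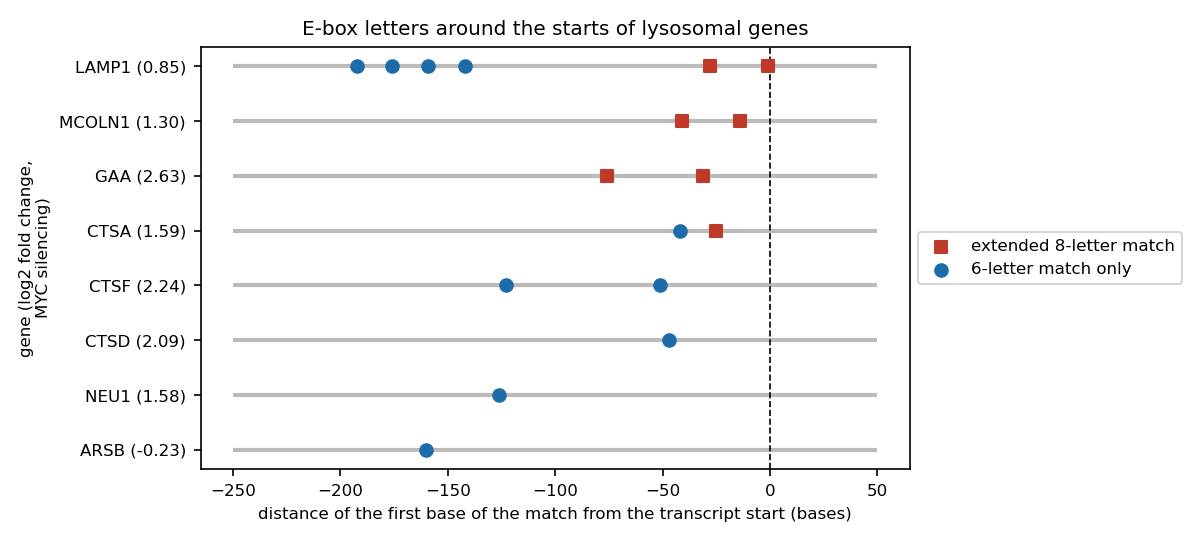
Positions of CACGTG relative to the RefSeq transcript start (horizontal axis, bases, 0 at the start) for 8 lysosomal genes. Red squares mark matches within the longer 8-letter sequence and blue circles the 6-letter core alone, the grey line is the window searched, CD63 with its several starts is left out, and the number beside each gene is its log2 fold change on MYC silencing. The 7 red squares lie from position -76 to position -1, and the farthest blue circle is at position -192.

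Comparison of 3D vs. 2D cells showed changes in both directions. Among the 39 genes, 10 were higher in 3D cells, 19 were lower and 10 did not pass, and the median log2 fold change was -0.15 against -0.01 for all 19190 genes tested. Of all those genes 32.0% were higher and 31.7% lower. Without the 2D replicate 1 library, the lowest of its group for 30 of the 39 genes, 6 were higher. Large changes, beyond 1.5 on the log2 scale, were seen for 1 gene that rose and 4 that fell, against 6.90% and 9.29% of all genes. Vehicle-treated tet-MUC1shRNA mammospheres set against 2D cells gave 16 higher and 17 lower, where 36.1% and 37.8% of all genes were. The mtDNA share was 5.22% to 5.24% in 2D and 2.31% to 2.72% in 3D cells. The endothelial markers, by way of PECAM1, summed to at most 0.0342 CPM in 2D and to 5.92 to 7.29 CPM in 3D cells, the 4 leukocyte markers to 1.40 to 2.09 and 0.450 to 0.742 CPM, the 5 epithelial markers to 1.74 to 1.95 and 0.664 to 0.930 CPM, and 4 mesenchymal markers (VIM, FN1, CDH2, ZEB1) to 2152 to 2176 and 8008 to 8493 CPM. The receptor genes ESR1, PGR and ERBB2 summed to 33.1 to 36.8 CPM in 2D and 22.5 to 23.5 CPM in 3D cells. Genes within a list moved apart: of the 4 mesenchymal markers 3 were higher and 1 lower. Of 2 epithelial markers tested 1 was higher and 1 lower, and of 3 leukocyte markers tested 1 was higher and 2 lower. The part of these in the counts was not tested.

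Of the membrane proteins, 4 of 5 fell and none rose. SCARB2, a sorting receptor of the lysosomal membrane, read 316, 354 and 396 CPM in 2D cells and 61.2, 58.4 and 59.0 CPM in 3D cells. All 2D values lay far above the 3D values, a 5.99-fold lower level (log2 fold change -2.58 ± 0.08, adjusted p = 4.0e-14). LAMP1, LAMP2 and MCOLN1, the last a cation channel that releases lysosomal calcium, fell by less, with log2 fold changes of -0.57, -0.81 and -0.82. The tetraspanin CD63 measured 199 ± 32.4 CPM in 2D and 199 ± 13.1 CPM in 3D cells (SD, n = 3) and did not pass. TFEB read 0.932, 1.11 and 1.57 CPM in 2D and 1.27, 1.44 and 1.43 CPM in 3D cells, with overlapping groups, and did not pass (adjusted p = 0.569).

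The 11 cathepsins divided into 4 that rose, 5 that fell and 2 that did not pass. CTSL read 278, 341 and 347 CPM in 2D and 1739, 1566 and 1876 CPM in 3D cells, 5.34-fold higher (log2 fold change 2.42 ± 0.08, adjusted p = 2.6e-13). CTSB read 1145, 1380.5 and 1341 CPM in 2D and 3165, 2906 and 3233 CPM in 3D cells (log2 fold change 1.26 ± 0.07, adjusted p = 6.6e-11). CTSD, the main aspartic protease of lysosomes, read 22.4, 26.8 and 23.4 vs. 56.7, 53.3 and 48.3 CPM (log2 fold change 1.12 ± 0.08, adjusted p = 4.2e-09), with 27.3% of its exon bases shared with other annotated genes on its strand. For these 3 proteases every 3D library lay above every 2D library. In vehicle-treated tet-MUC1shRNA mammospheres CTSL and CTSB stood higher than in 3D cells, at 3026 and 5218 CPM, and CTSD lower, at 31.0 CPM. CTSO, another cysteine protease, moved the other way, at 11.9, 16.3 and 17.4 CPM in 2D and 0.540, 0.703 and 0.682 CPM in 3D cells, 23.6-fold lower (log2 fold change -4.56 ± 0.18, adjusted p = 2.4e-12). It kept 26 to 44 reads in each 3D library. CTSA, the carboxypeptidase that protects NEU1 and GLB1, fell by 0.45 on the log2 scale, CTSK, a collagen-cutting protease, by 0.61, and CTSH and CTSS by 0.74 and 1.498 from means below 2 CPM. For CTSH and CTSK the direction was the opposite with vehicle-treated tet-MUC1shRNA mammospheres as the 3D group, at 0.94 and 0.81, and CTSS was not called there. The call of CTSH was also lost without 2D replicate 3 or 3D replicate 2.

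Among genes of sphingolipid breakdown, 3 of 4 fell. ASAH1 read 142, 149 and 161 CPM in 2D and 34.8, 30.5 and 36.8 CPM in 3D cells, 4.44-fold lower (log2 fold change -2.15 ± 0.07, adjusted p = 3.2e-13). SMPD1, the acid sphingomyelinase, read 14.1, 18.5 and 16.8 vs. 8.41, 6.60 and 8.93 CPM (log2 fold change -1.05 ± 0.13, adjusted p = 2.0e-06), and GM2A, which lifts GM2 ganglioside out of membranes for hydrolysis, fell by 1.01. Neither ASAH1 nor SMPD1 overlapped between the groups. In vehicle-treated tet-MUC1shRNA mammospheres ASAH1, SMPD1 and GM2A stood at 92.4, 12.7 and 29.9 CPM, against 151, 16.4 and 35.5 CPM in 2D cells. These falls were smaller and were still called. PSAP was higher by 0.18 (adjusted p = 0.0552), a call lost without 2D replicate 1, 3D replicate 1 or 3D replicate 3 and with library size alone. Of the 4 sulfatases, ARSB, which acts on dermatan sulfate, read 109, 102 and 107 vs. 37.7, 36.8 and 36.2 CPM without overlap (log2 fold change -1.53 ± 0.06, adjusted p = 1.6e-12). SGSH, the heparan sulfamidase, fell by 0.30, and IDS and ARSA did not pass. The call of SGSH was lost without any of 4 single libraries, with DESeq2, and with vehicle-treated tet-MUC1shRNA mammospheres against 2D cells. Of the 12 glycosidases, 4 rose and 5 fell. GUSB (beta-glucuronidase), GAA, MAN2B1 and HEXA rose by 0.90, 0.44, 0.25 and 0.22, of which GUSB alone was called whichever library was left out. GAA was lost without 2D replicate 1 or 2D replicate 3, and MAN2B1 without 2D replicate 3 or 3D replicate 1. HEXA was lost without 2D replicate 1 or 3D replicate 3, and with DESeq2, library size alone, no filter or an adjusted p below 0.05. IDUA, FUCA1 (alpha-L-fucosidase), MANBA (beta-mannosidase), NAGLU and GLB1 fell by 1.20, 0.89, 0.66, 0.32 and 0.15, of which FUCA1 was not called without 2D replicate 3, 3D replicate 1 or 3D replicate 3, and GLB1 not without 2D replicate 2, 2D replicate 3, 3D replicate 2 or 3D replicate 3. The call of NAGLU (adjusted p = 0.0953) was lost without 2D replicate 2, 2D replicate 3, 3D replicate 1 or 3D replicate 2, and with DESeq2, RLE factors, no filter, the fit of all libraries or the replicate block, and that of IDUA with vehicle-treated tet-MUC1shRNA mammospheres against 2D cells. MANBA was at 0.49 in the vehicle-treated tet-MUC1shRNA mammospheres against 2D cells. TPP1, a tripeptidyl peptidase, was higher by 0.14 with overlapping groups, and PPT1, which removes palmitate from proteins, did not pass. TPP1 was not called without 2D replicate 1, 3D replicate 2 or 3D replicate 3, or with library size alone.

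**Figure D3:**
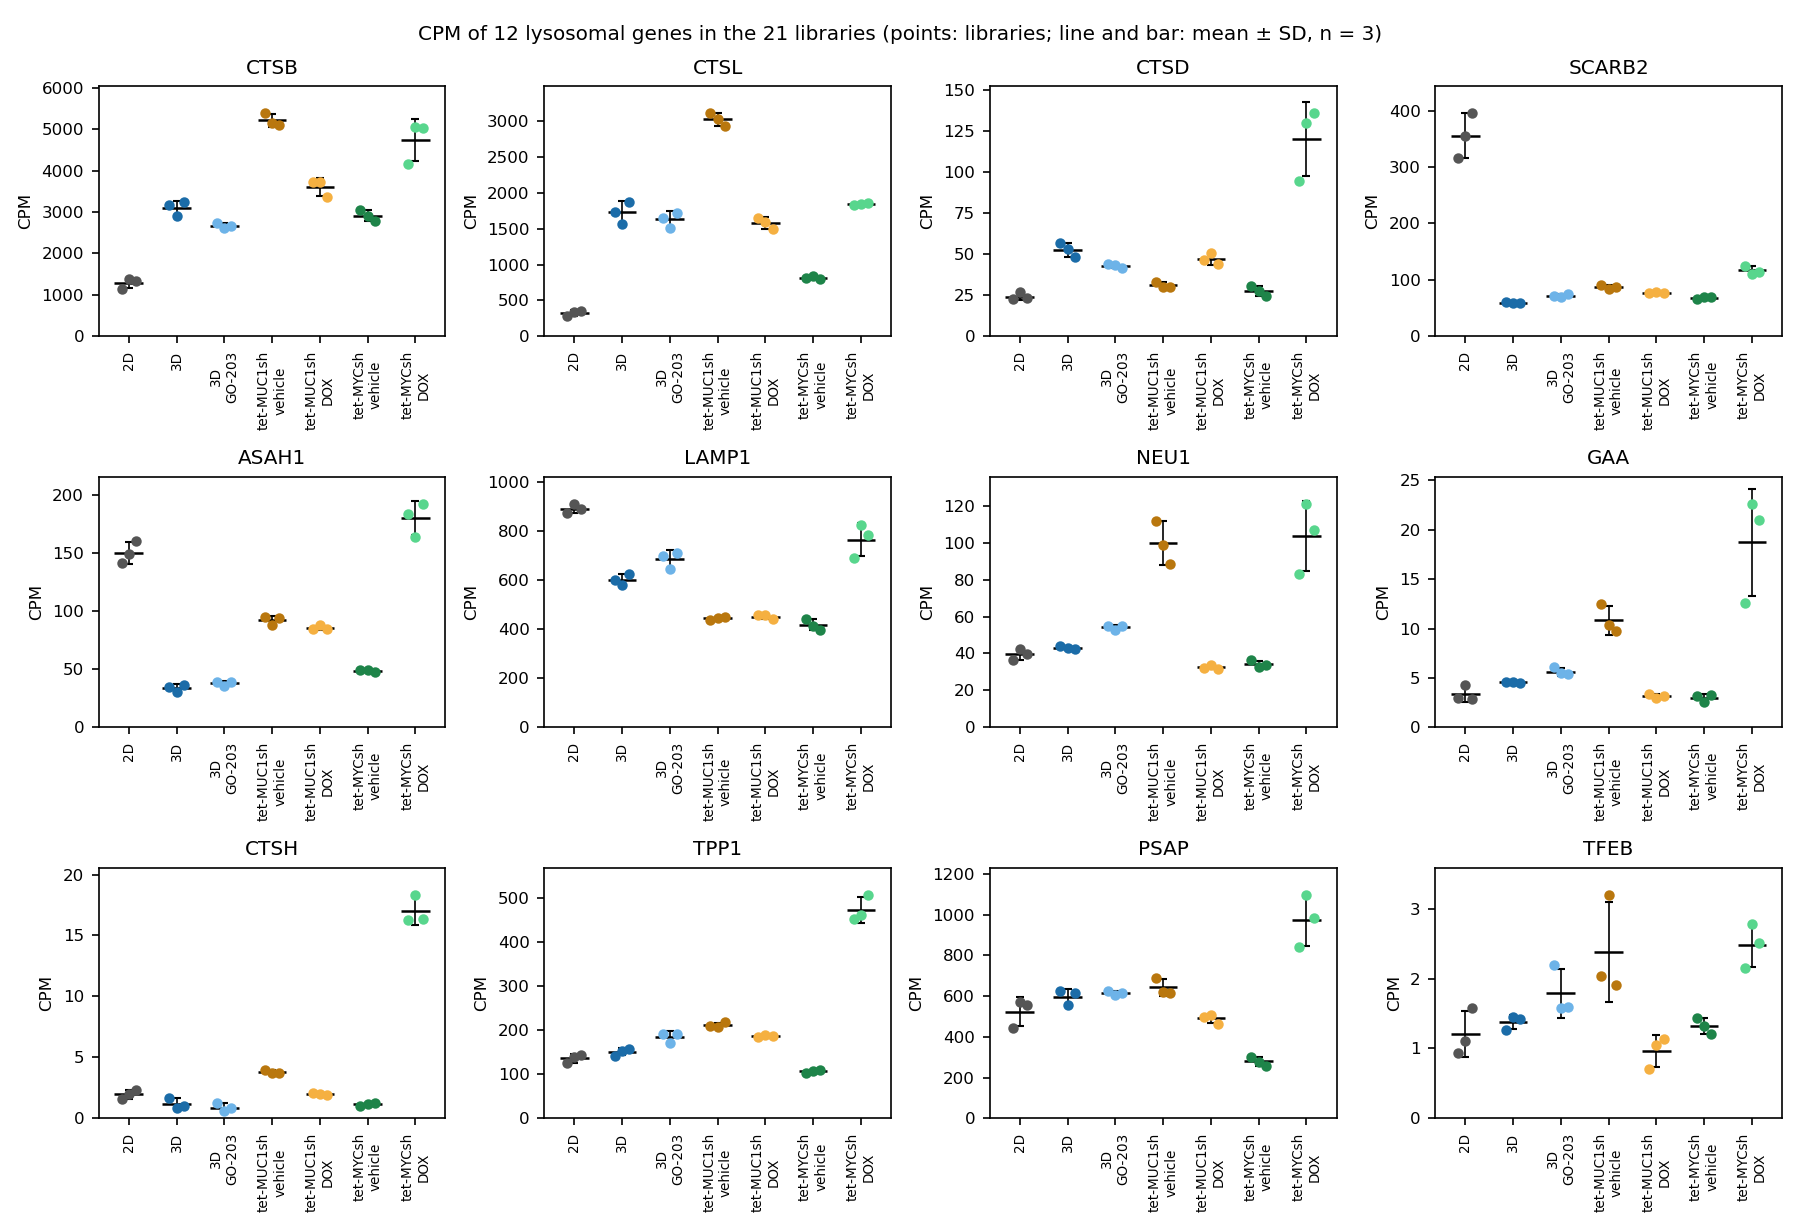
CPM (vertical axes, each from 0) of 12 lysosomal genes in the 7 groups; points are libraries, the horizontal line and bar are the mean ± SD, n = 3. SCARB2 is highest in 2D cells at 316 to 396 CPM, ASAH1 in DOX-treated tet-MYCshRNA mammospheres at 164 to 193 CPM, CTSB and CTSL in vehicle-treated tet-MUC1shRNA mammospheres, and CTSH stands at 16.3 to 18.3 CPM in DOX-treated tet-MYCshRNA mammospheres and below 4 CPM elsewhere.

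Other lysosomal genes, 109 in further lists of which 100 were tested, gave 33 higher and 42 lower in 3D cells, against 32.0% and 31.7% of all genes. Hydrolases outside the 39 were mostly lower (16 of 20 tested), while 3 rose, among them LIPA, the lysosomal acid lipase, at 389 ± 17.3 CPM against 176 ± 10.2 CPM in 2D cells (log2 fold change 1.14 ± 0.06, adjusted p = 6.5e-11). GNPTAB, a subunit of the phosphotransferase that starts the mannose 6-phosphate tag, fell from 176 ± 8.47 to 34.9 ± 1.12 CPM (log2 fold change -2.34 ± 0.06, adjusted p = 1.2e-14). IGF2R, a receptor of that tag, fell by 0.92. The cathepsin inhibitors CST3 (cystatin C) and CSTB (cystatin B), the only tested of 8 such genes, both rose, with CST3 at 43.1, 49.8 and 42.7 CPM in 2D and 534, 484 and 510.1 CPM in 3D cells (log2 fold change 3.49 ± 0.07, adjusted p = 3.8e-16) and CSTB higher by 2.63. In the TFEB family TFE3 rose by 1.38 and MITF fell by 1.16, while RRAGD, a GTPase that brings mTORC1 to lysosomes, rose from 0.280 ± 0.144 to 4.87 ± 0.977 CPM.

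On MUC1 silencing, more lysosomal genes fell than rose. Of the 39 genes 6 were higher, 23 lower and 10 did not pass, with a median log2 fold change of -0.23 against 0.02 for all 19220 genes tested, of which 30.7% were higher and 31.6% lower (62.2% together). Scaled by library size alone, the median of all genes moved to 0.19, 10 lysosomal genes were higher and 17 lower, and the calls over all genes turned to 7965 higher and 4404 lower, from 5892 and 6070. Large changes were 1 rise and 2 falls, against 5.74% and 3.08% of all genes. The 5 epithelial markers summed to 0.0522 to 0.141 CPM with vehicle and 2.38 to 2.72 CPM with DOX, with 2 and 1 of them at 0 in all libraries of the group. The leukocyte markers summed to 0.496 to 0.925 and 0.947 to 1.52 CPM, the endothelial markers to 3.95 to 4.18 and 2.59 to 3.36 CPM, the mesenchymal markers to 11358 to 12430 and 8380 to 8731 CPM, the receptor genes to 23.6 to 27.7 and 19.9 to 23.4 CPM, and the mtDNA share was 2.60% to 2.78% and 6.36% to 6.72%. Of the 4 mesenchymal markers 2 were higher and 2 lower. The part of these was not tested.

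Of the 12 glycosidases 10 fell and 1 rose. GAA, which degrades lysosomal glycogen, read 12.5, 10.3 and 9.72 CPM with vehicle and 3.42, 3.01 and 3.18 CPM with DOX, 3.33-fold lower (log2 fold change -1.74 ± 0.12, adjusted p = 1.4e-10). NEU1, the lysosomal sialidase, read 112, 98.9 and 88.7 CPM with vehicle and 32.1, 33.7 and 31.6 CPM with DOX (log2 fold change -1.60 ± 0.07, adjusted p = 3.6e-14). MAN2B1, the alpha-mannosidase, read 37.3, 35.0 and 33.3 vs. 18.3, 19.2 and 21 CPM (log2 fold change -0.83 ± 0.07, adjusted p = 2.5e-09), with 21.2% of its exon bases shared with other genes. In none of the 3 did the groups overlap. FUCA1 was the exception and read 0.757, 1.04 and 1.02 CPM with vehicle and 3.10, 3.65 and 2.701 CPM with DOX, 3.40-fold higher (log2 fold change 1.76 ± 0.21, adjusted p = 2.7e-07), on 29 to 262 reads per library. GLA (alpha-galactosidase), MANBA, GUSB and HEXA (the alpha subunit of beta-hexosaminidase) fell by 0.56, 0.73, 0.35 and 0.27, HEXA not passing under library size alone. GLB1 (beta-galactosidase) and the secreted fucosidase FUCA2 fell by 0.16 and 0.11 and stood at 0.01 and 0.05 under library size alone, and FUCA2 was called only when vehicle replicate 1 was the library left out. IDUA fell by 1.01 on 10 to 47 reads per library with overlapping groups, and was not called without vehicle replicate 2 or DOX replicate 1.

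Of the cathepsins 6 of 11 fell and 1 rose. CTSL read 3115, 3033 and 2929 CPM with vehicle and 1644, 1599.9 and 1491 CPM with DOX (log2 fold change -0.92 ± 0.04, adjusted p = 9.7e-14), and CTSH, an aminopeptidase of the family, 3.97, 3.72 and 3.68 vs. 2.11, 1.98 and 1.91 CPM (log2 fold change -0.90 ± 0.16, adjusted p = 6.1e-05). Both were lower in every DOX library than in any vehicle library. CTSL has 7 annotated pseudogenes named after it, whose reads could not be told apart from its own where they are identical. CTSK, CTSZ (a carboxypeptidase), CTSB and CTSF fell by 0.78, 0.54, 0.51 and 0.46. CTSD rose, from 31.0 ± 1.81 to 46.8 ± 3.56 CPM (SD, n = 3; log2 fold change 0.62 ± 0.06, adjusted p = 3.7e-08), and CTSA, CTSC, CTSO and CTSS did not pass, although CTSA stood at 0.16 under library size alone.

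IDS, the iduronate 2-sulfatase, read 15.9, 14.6 and 14.9 CPM with vehicle and 5.47, 5.53 and 5.15 CPM with DOX without overlap (log2 fold change -1.47 ± 0.09, adjusted p = 2.1e-11), but 75.9% of its exon bases are shared with other annotated genes on its strand. ARSA, which cleaves sulfatide, rose by 0.71, and ARSB and SGSH did not pass. MCOLN1 read 15.2, 13.8 and 14.9 vs. 27.8, 29.0 and 26.9 CPM (log2 fold change 0.95 ± 0.07, adjusted p = 1.8e-10), the only membrane protein of the 5 that rose. LAMP2, CD63 and SCARB2 fell by 0.23, 0.28 and 0.15, of which SCARB2 stood at 0.02 and LAMP2 was not called under library size alone, and LAMP1 did not pass at 443 ± 6.22 and 451 ± 10.5 CPM. SMPD1 rose by 0.57 and PSAP fell by 0.37, while ASAH1 and GM2A did not pass. PPT1 rose by 0.13, a call lost with all 21 libraries in a single fit, and TPP1 fell by 0.16, at 0.01 under library size alone. TFEB, at 2.04, 3.20 and 1.91 CPM with vehicle and 0.708, 1.04 and 1.14 CPM with DOX, was lower without overlap (log2 fold change -1.29 ± 0.25, adjusted p = 1.9e-04), on 40 to 136 reads per library.

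The further lysosomal lists gave 43 higher and 37 lower of 100 tested on MUC1 silencing, against 30.7% and 31.6% of all genes, with a median of 0.03. Among autophagy genes MAP1LC3B, an LC3 of the autophagosome membrane, fell from 368 ± 15 to 99.4 ± 4.92 CPM (log2 fold change -1.86 ± 0.05, adjusted p = 1.3e-17), and its relative GABARAPL1 rose from 29.2 ± 2.65 to 42.5 ± 2.71 CPM (log2 fold change 0.57 ± 0.07, adjusted p = 4.5e-07). Genes of the V-ATPase, the proton pump that acidifies lysosomes, gave 9 higher and 5 lower of 17 tested, with ATP6V0A1 higher by 0.79, whereas TCIRG1 fell by 0.71. SORT1, a sorting receptor, rose by 1.54, and the mTORC1 scaffold gene LAMTOR3 fell by 1.09. Of 3 cathepsin inhibitors tested 2, CST3 and CSTB, were lower and 1 was higher.

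Treatment of 3D cells with GO-203 was accompanied by small changes. Among the 39 genes 17 were higher, 3 lower and 19 did not pass, against 11.1% higher and 12.9% lower among all 18488 genes tested, and the median log2 fold change was 0.16 against 0.02. None was beyond 1.5 on the log2 scale, against 0.498% higher and 0.260% lower among all genes. The mtDNA share of counts was 2.31% to 2.72% in untreated and 3.34% to 4.396% in treated cells, and its part was not tested. Without 3D replicate 2, the lowest of its group for 23 of the 39 genes, 11 were higher, as also at an adjusted p below 0.05, and 10 were higher when all 21 libraries were fitted together. The comparison shares its 3D libraries with the 3D vs. 2D comparison. In the count table the GO-203 libraries formed a block with 7587 genes without a value, and the 2D and 3D libraries another with 6498. Treatment and block of the table cannot be told apart here.

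Of the membrane proteins 4 of 5 were higher: LAMP1, LAMP2, SCARB2 and MCOLN1 rose by 0.22, 0.30, 0.29 and 0.24, the call of MCOLN1 being lost without any of 5 of the 6 libraries. Genes of sphingolipid breakdown gave 3 of 4. SMPD1 read 8.41, 6.60 and 8.93 CPM in untreated and 10.5, 11.7 and 10.7 CPM in GO-203-treated 3D cells (log2 fold change 0.49 ± 0.12, adjusted p = 0.0046), and GM2A read 17.2, 17.3 and 18.5 vs. 23.5, 21.8 and 23.9 CPM (log2 fold change 0.42 ± 0.07, adjusted p = 3.0e-04). Neither overlapped. ASAH1 rose by 0.19 with overlapping groups, a call lost without 3D replicate 2, GO-203 replicate 1 or GO-203 replicate 3, and PSAP did not pass. The calls of MCOLN1 and ASAH1 were also lost with DESeq2, no filter, all 21 libraries in a single fit or an adjusted p below 0.05. TPP1 read 142, 153 and 158 vs. 192, 172 and 192 CPM (log2 fold change 0.33 ± 0.06, adjusted p = 4.3e-04).

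Of the glycosidases, which remove sugars from glycans, 6 of 12 rose and none fell. NEU1 read 44, 43.0 and 42.6 CPM in untreated and 54.9, 52.6 and 54.9 CPM in treated cells (log2 fold change 0.36 ± 0.06, adjusted p = 6.4e-05). NAGLU, which acts on heparan sulfate, read 4.13, 3.65 and 4.32 vs. 6.01, 5.02 and 4.79 CPM (log2 fold change 0.41 ± 0.15, adjusted p = 0.0524), a call lost without 3D replicate 2 or GO-203 replicate 1 and with all 21 libraries in a single fit. GAA read 4.61, 4.61 and 4.46 vs. 6.08, 5.45 and 5.35 CPM (log2 fold change 0.33 ± 0.13, adjusted p = 0.0923) and was not called when any of the 6 libraries was left out, or with DESeq2, no filter or all 21 libraries in a single fit. These groups did not overlap. FUCA1 rose by 1.11 from 30 to 64 reads per library, with overlapping groups. GLA and GLB1 each rose by 0.16, the call of GLA being lost without 3D replicate 1, 3D replicate 2, GO-203 replicate 1 or GO-203 replicate 3, and that of GLB1 without 3D replicate 2, 3D replicate 3, GO-203 replicate 1 or GO-203 replicate 3. Both were also lost with no filter or with all 21 libraries in a single fit. Of the cathepsins 3 rose and 3 fell. CTSC, a dipeptidyl peptidase that activates serine proteases, read 298, 291 and 326 CPM in untreated and 226, 217 and 231 CPM in treated cells (log2 fold change -0.41 ± 0.05, adjusted p = 1.1e-05). CTSK read 7.31, 9.90 and 7.22 vs. 10.5, 12.6 and 9.96 CPM (log2 fold change 0.47 ± 0.13, adjusted p = 0.0158), a call lost without GO-203 replicate 2. CTSB and CTSD fell by 0.19 and 0.27, CTSA rose by 0.22, a call lost with all 21 libraries in a single fit, and CTSO by 0.86 from 26 to 44 reads, the last of these calls being lost without 3D replicate 1, GO-203 replicate 2 or GO-203 replicate 3. CTSL measured 1727 ± 156 and 1630.2 ± 109.8 CPM (SD, n = 3) and did not pass, and none of the 4 sulfatases passed. TFEB read 1.27, 1.44 and 1.43 vs. 2.19, 1.57 and 1.60 CPM, higher in each treated library than in any untreated one, and did not pass (adjusted p = 0.256).

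The further lists gave 32 higher and 6 lower of 100 tested with GO-203, against 11.1% and 12.9% of all genes. Among them 11 of 20 other hydrolases rose with none lower. HGSNAT, the acetyltransferase of heparan sulfate breakdown, rose from 39.5 ± 1.07 to 56.2 ± 1.19 CPM (log2 fold change 0.54 ± 0.06, adjusted p = 3.0e-07), and GABARAPL1 from 10.2 ± 1.46 to 16.1 ± 0.627 CPM (log2 fold change 0.69 ± 0.10, adjusted p = 3.0e-05). The autophagy gene ATG7 fell by 0.42. None of the 10 sorting genes passed.

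**Figure D4:**
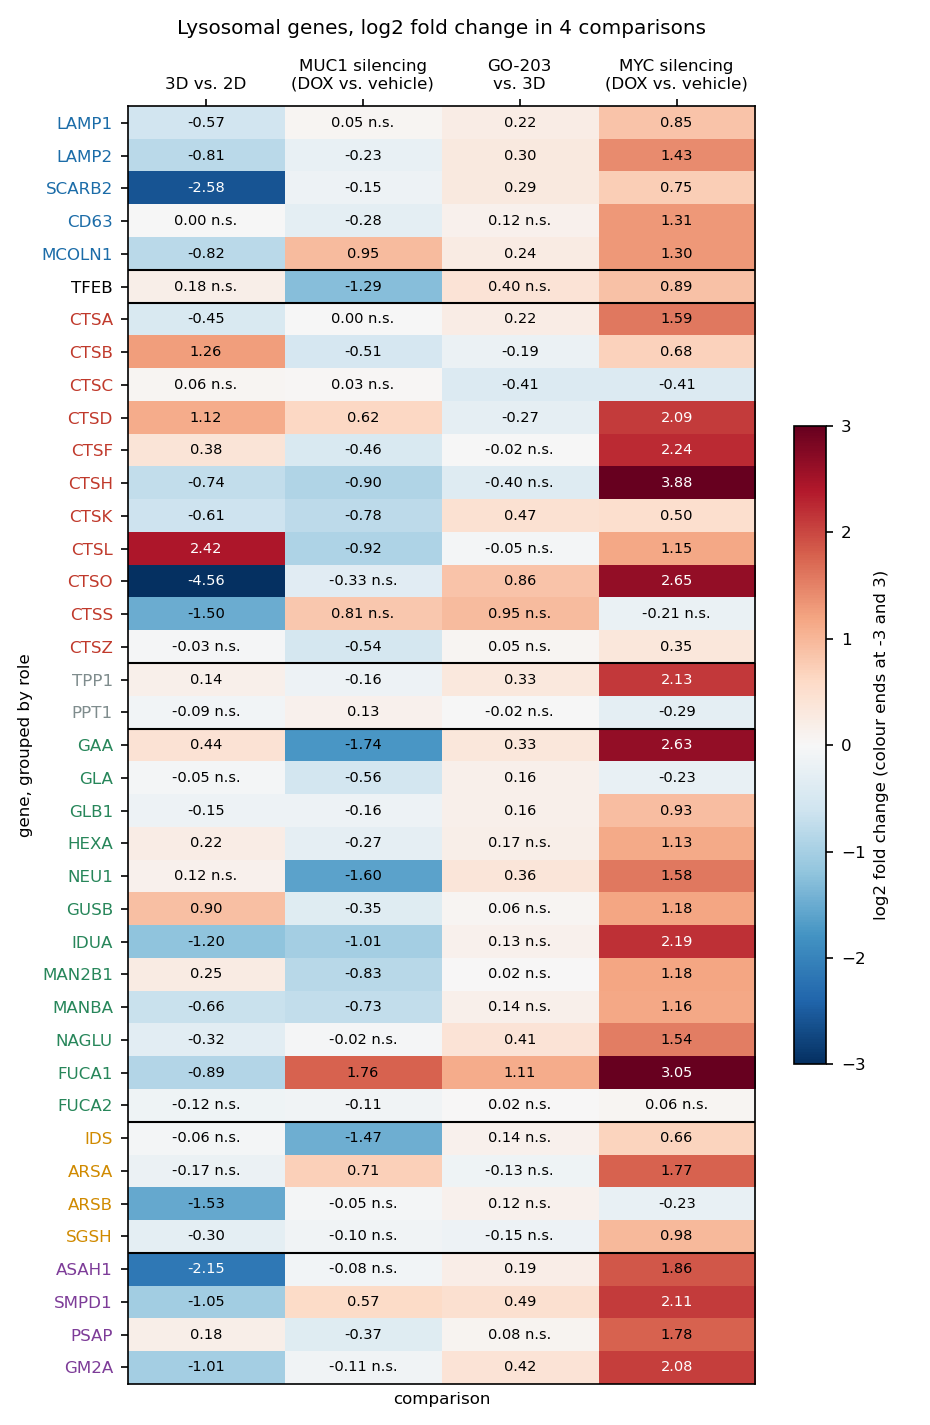
Log2 fold change (number and colour; colour ends at -3 and 3) of the 39 lysosomal genes, grouped by role, in the 4 comparisons; n.s. marks genes that did not pass an adjusted p below 0.1. The column for MYC silencing holds 33 genes that were higher, up to 3.88 for CTSH, and that for GO-203 holds no value beyond 1.5.

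On MYC silencing the lysosomal genes moved mostly upwards. Of the 39 genes 33 were higher, 4 lower and 2 did not pass, against 30.3% higher and 28.1% lower (58.5% together) among all 19951 genes tested, and the median log2 fold change was 1.18 against 0.01. Large rises were seen for 16 genes, against 7.06% of all genes, and none showed a large fall, against 3.39%. These counts of 33 and 4 stayed as they were without any library in turn and under all other settings tried. DOX replicate 1 was the lowest of its group for 30 of the 39 genes, and its MYC level, 244 CPM, was the lowest of the 3 as well. From vehicle to DOX the leukocyte markers summed to 0.343 to 0.561 and 0.680 to 0.930 CPM, the endothelial markers to 6.42 to 7.16 and 8.66 to 10.1 CPM, the mesenchymal markers to 7799 to 8082 and 13967 to 15671 CPM and the receptor genes to 18.7 to 22.7 and 28.1 to 43.5 CPM, none overlapping. Of the 4 mesenchymal markers 3 were higher and 1 lower. The epithelial markers, 0.0799 to 0.147 and 0.0403 to 0.111 CPM, and the mtDNA share, 3.37% to 4.08% and 3.96% to 5.07%, overlapped. The part of these was not tested.

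All 5 membrane proteins rose. LAMP2, at 202, 207 and 214 CPM with vehicle and 585, 569 and 544 CPM with DOX, showed the largest difference of the 5 (log2 fold change 1.43 ± 0.06, adjusted p = 4.5e-08), and CD63, MCOLN1, LAMP1 and SCARB2 rose by 1.31, 1.30, 0.85 and 0.75. LAMP2 was singled out after its values were seen. The regulator TFEB read 1.44, 1.32 and 1.21 CPM with vehicle and 2.16, 2.79 and 2.51 CPM with DOX, higher without overlap (log2 fold change 0.89 ± 0.19, adjusted p = 0.00225).

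Of the cathepsins 9 of 11 rose. CTSH read 0.985, 1.15 and 1.27 CPM with vehicle and 16.3, 18.3 and 16.4 CPM with DOX, 14.8-fold higher (log2 fold change 3.88 ± 0.14, adjusted p = 1.4e-08). CTSF read 9.77, 8.98 and 9.86 vs. 42.5, 49.3 and 45.4 CPM (log2 fold change 2.24 ± 0.09, adjusted p = 4.0e-08), and CTSD 30.8, 27.7 and 24.8 vs. 94.4, 129.8 and 136 CPM (log2 fold change 2.09 ± 0.13, adjusted p = 6.3e-07). In each of the 3 the DOX libraries lay above all vehicle libraries. CTSO and CTSA rose by 2.65 and 1.59, CTSL by 1.15, CTSB by 0.68, CTSK by 0.50 and CTSZ by 0.35. CTSC fell, from 331 ± 6.34 to 253 ± 4.30 CPM (SD, n = 3; log2 fold change -0.41 ± 0.05, adjusted p = 1.1e-04), and CTSS did not pass. TPP1 read 103, 107 and 111 CPM with vehicle and 451, 461 and 507 CPM with DOX (log2 fold change 2.13 ± 0.07, adjusted p = 6.6e-09), whereas PPT1 fell by 0.29.

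Of the glycosidases 10 of 12 rose, GLA fell by 0.23 and FUCA2 did not pass. FUCA1 read 0.426, 0.601 and 0.523 CPM with vehicle and 4.24, 4.84 and 4.11 CPM with DOX, 8.31-fold higher (log2 fold change 3.05 ± 0.20, adjusted p = 6.4e-07). GAA read 3.14, 2.57 and 3.27 vs. 12.6, 22.6 and 21 CPM (log2 fold change 2.63 ± 0.21, adjusted p = 3.1e-06), with DOX replicate 1 well below the other 2 but above all vehicle libraries. The rises of the others ran from 0.93 for GLB1 to 2.19 for IDUA, which had 14 to 83 reads per library. GUSB, at 1.18, has 21 annotated pseudogenes named after it. All 4 genes of sphingolipid breakdown showed large rises. SMPD1 read 10.2, 8.68 and 8.90 vs. 35.0, 43.6 and 42.9 CPM (log2 fold change 2.11 ± 0.11, adjusted p = 2.0e-07), and GM2A 19.3, 20.01 and 18.4 vs. 71.3, 85.3 and 90.3 CPM (log2 fold change 2.08 ± 0.10, adjusted p = 7.1e-08). ASAH1 and PSAP rose by 1.86 and 1.78, so that PSAP reached 974 ± 129.8 CPM. Of the sulfatases ARSA, SGSH and IDS rose by 1.77, 0.98 and 0.66, IDS with overlapping groups, and ARSB fell by 0.23.

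Of the 9 genes with a core E-box in their RefSeq window, 8 rose and ARSB fell on MYC silencing, with a median of 1.58. Of the 18 other genes with a window, 14 rose and 3 fell, with a median of 1.04. On MUC1 silencing the 9 genes gave 2 higher and 4 lower with a median of -0.05, and the 18 gave 3 higher and 13 lower with a median of -0.26. The 4 that fell on MUC1 silencing were GAA, NEU1, CTSF and CD63, and those that rose MCOLN1 and CTSD. These are counts of letters beside measured changes, without a test.

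Of the further lists 71 were higher and 5 lower of 100 tested on MYC silencing, against 30.3% and 28.1% of all genes, with a median of 0.56. The 5 that fell were LAPTM4B, ABCA2, RRAGA, LAMTOR5 and ATG7. Other hydrolases gave 17 higher of 20, including the sialic acid esterase SIAE from 6.76 ± 0.741 to 27.8 ± 1.16 CPM (log2 fold change 2.02 ± 0.11, adjusted p = 1.9e-07). The cholesterol carrier NPC2 rose by 1.92, HGSNAT by 1.82 and IGF2R by 1.32. V-ATPase genes gave 14 higher of 17, led by TCIRG1 at 1.33, and none was lower. The autophagy receptor SQSTM1 rose from 213 ± 14.7 to 689 ± 100. CPM (log2 fold change 1.67 ± 0.10, adjusted p = 4.5e-07) and GABARAPL1 by 2.27. CST3 and CSTB rose here too, by 2.49 and 0.99. MUC1 rose by 1.25 on MYC silencing, and MYC by 0.25 on MUC1 silencing.

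The effects of the silencing experiments were then compared directly as an interaction over their 12 libraries. The effect of MUC1 silencing was lower than that of MYC silencing for 33 of the 39 genes and higher for 2, while 4 did not pass, against 26.9% lower and 26.0% higher among 21585 genes tested (52.9% in either direction). Differences beyond 1.5 on the log2 scale were lower for 21 of the 39 and higher for 0, against 8.56% and 7.59% of all genes. The median difference was -1.55 on the log2 scale against 0.05 for all genes, the latter 0.25 under library size alone, where the calls over all genes turned to 7260 higher and 4602 lower from 5612 and 5808. Counted by the separate tests, 21 genes fell on MUC1 silencing and rose on MYC silencing, 5 rose in both, GLA fell in both, PPT1 rose on MUC1 and fell on MYC silencing, 10 passed on MYC or MUC1 silencing only and CTSS in neither. Of the 18198 genes tested in both experiments, 10.7% fell on MUC1 and rose on MYC silencing, 11.5% rose in both, 12.7% fell in both and 8.11% rose on MUC1 and fell on MYC silencing. Of the 21, SCARB2, TPP1 and GLB1 stood at or slightly above 0 on MUC1 silencing under library size alone, and LAMP2 and HEXA were not called there. The 5 that rose in both were MCOLN1, CTSD, FUCA1, ARSA and SMPD1, and of these MCOLN1 did not pass the interaction (difference -0.36 ± 0.19, adjusted p = 0.136).

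CTSH showed the largest difference, -4.80 ± 0.18 (adjusted p = 7.1e-13), with 3.79 ± 0.157 and 2.00 ± 0.101 CPM with vehicle and DOX in the MUC1 experiment and 1.14 ± 0.145 and 17.0 ± 1.16 CPM in the MYC experiment. GAA followed at -4.38 ± 0.26, with 10.8 ± 1.47 and 3.20 ± 0.204 CPM in the MUC1 and 2.99 ± 0.371 and 18.7 ± 5.39 CPM in the MYC experiment. NEU1 differed by -3.19 ± 0.16, with 99.9 ± 11.7 and 32.5 ± 1.09 against 34.3 ± 1.87 and 104 ± 19.1 CPM. For each of these genes the vehicle level was higher in the tet-MUC1shRNA line. More broadly, the vehicle libraries of the tet-MUC1shRNA line lay wholly above those of the tet-MYCshRNA line for 27 of the 39 genes and wholly below for 7, against 20.3% and 20.8% of all genes with counts. With DOX they lay below for 33 and above for 1, PPT1, against 20.1% and 20.9%. Line, passage and hairpin differ together with the target here, so the share of each in the difference cannot be told apart.

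**Figure D5:**
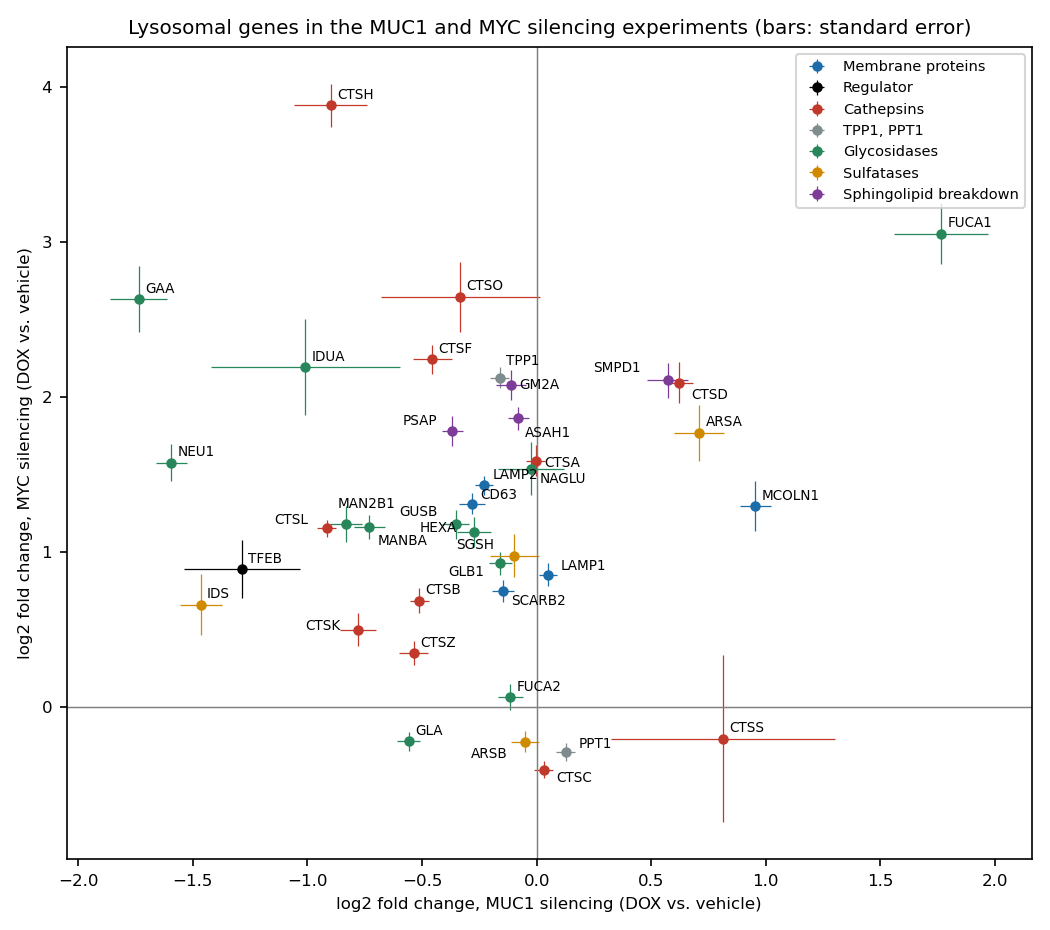
Log2 fold change of each of the 39 lysosomal genes on MUC1 silencing (horizontal axis) and on MYC silencing (vertical axis), DOX vs. vehicle, coloured by role, with bars for the standard error. Most points lie in the upper left section, where 21 genes passed in both tests, and CTSH and GAA lie farthest from the diagonal.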

How the data were processed

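The authors deposited raw counts per gene for 21 mRNA libraries in a single table. Their processing notes list CASAVA 1.8.2, STAR 2.7.3a and DESeq2, and their methods name featureCounts. The annotation release was not given in the sources used here. Empty cells, 4952 to 7587 genes per block of libraries, were read as 0. The 39 genes and all further lists were chosen with earlier results of these data known. Each comparison was fitted on its own libraries across all genes with edgeR 4.0.16 (filterByExpr, TMM factors, quasi-likelihood F-test, R 4.3.3), with Benjamini-Hochberg adjustment over all genes tested and a threshold of 0.1. The difference of the silencing effects was an interaction over 12 libraries. The script for the fits was run on simulated data whose spread between replicates was set below that estimated for MYC silencing and for the interaction. The run therefore does not measure the error of those fits. CPM used TMM factors over the 21 libraries and SD has n = 3. Ensembl identifiers were matched to symbols through the reference gene table and GENCODE 44, which also gave exon lengths and overlaps.

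Values per library are given for TFEB and for up to 8 genes per comparison with the largest change among those that passed, did not overlap between groups and averaged at least 100 counts. Genes of the further lists were named by the same rule, up to 2 per list and direction, and only a part of those that met it is given. LAMP2 and the lysosomal genes given as means were added after their values were seen. Alternatives were DESeq2 1.42.0, RLE factors, library size alone, a filter at 1 count in all or at 10 counts per library, a single fit of the 21 libraries, the replicate number as a block, an adjusted p below 0.05, each library left out and another mammosphere group. Replicate libraries differed beyond sampling noise, by 19.549, 36.307 and 52.757 in chi-square per degree of freedom for the pairs of DOX-treated tet-MYCshRNA mammospheres. Pairs of the other groups differed by 4.365 to 21.038.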

Additional observations from a re-analysis of the deposited data

Results flagged for a closer look

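For 35 of the 39 lysosomal genes the effect of MUC1 silencing differed from that of MYC silencing in the interaction test of edgeR, and 22 of these had passed the separate tests with opposite signs, as had 10.7% (lower on MUC1 silencing) and 8.11% (higher) of all genes tested in both experiments. The differences (MUC1 minus MYC, log2 scale) of the membrane proteins in this set were -1.61 for CD63, -1.67 for LAMP2 and -0.91 for SCARB2, and that of the regulator TFEB was -2.19. Of the cathepsins, CTSB differed by -1.21, CTSF by -2.71, CTSH by -4.80, CTSK by -1.29, CTSL by -2.08 and CTSZ by -0.90. TPP1 differed by -2.30, and PPT1, the only one of the 22 with the opposite sign, by 0.41. Of the glycosidases, GAA differed by -4.38, GLB1 by -1.10, GUSB by -1.54, HEXA by -1.41, IDUA by -3.21, MAN2B1 by -2.02, MANBA by -1.91 and NEU1 by -3.19. The sulfatase IDS differed by -2.14 and PSAP by -2.16. The vehicle-treated controls of both lines differed in level for many of these genes, as given above, and line, passage and hairpin cannot be told apart from the target. No group had more than 3 libraries, so no library was tested for standing apart.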

How the results depend on the processing

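The counts on MYC silencing, 33 higher and 4 lower, were the same under all alternatives, with 37 of 37 calls never lost. Calls never lost numbered 15 of 29 for 3D vs. 2D, 21 of 29 on MUC1 silencing, 11 of 20 with GO-203 and 34 of 35 in the difference of the silencing effects. With the vehicle-treated tet-MUC1shRNA mammospheres set against 2D cells, 16 genes were higher instead of 10, and the log2 fold changes of CTSC, CTSH, CTSK, MANBA and IDS turned to -0.38, 0.94, 0.81, 0.49 and 0.70. Under library size alone, 10 genes instead of 6 were higher on MUC1 silencing, and SCARB2, CTSA, TPP1, GLB1 and FUCA2 stood at 0.0189, 0.163, 0.0061, 0.0064 and 0.0515, as the median of all genes moved from 0.02 to 0.19. With GO-203, 10 instead of 17 genes were higher with all 21 libraries in a single fit and 11 at an adjusted p below 0.05. The cause was not tested. Leaving out each library gave 6 to 11 higher (6 without 2D replicate 1) and 14 to 21 lower for 3D vs. 2D, 6 to 7 higher and 22 to 23 lower on MUC1 silencing, 11 to 14 higher (11 without 3D replicate 2) and 3 lower with GO-203, and 35 to 37 differing between the silencing effects.

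With the replicate block, 10 were higher and 18 lower (without NAGLU) for 3D vs. 2D, 6 and 23 on MUC1 silencing, 17 and 3 with GO-203, 33 and 4 on MYC silencing, and 35 differed. Deviations of same-numbered libraries correlated between -0.407 and 0.212, not every library correlated best with its own number, and nothing in the labels ties the numbers to a shared culture or day. CTSS and IDUA stayed below 100 reads in every library, which limits what could be detected for them.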
